A study of Mus musculus with 2 samples.

Results

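The 7 genes described here form 2 ligand and receptor systems of blood vessels: the angiopoietins Angpt1 and Angpt2 with the receptors Tek (also called Tie2) and Tie1, and apelin (Apln) with its receptor Aplnr, together with Esm1. They were taken by name from a list, 7 of the 32285 genes in the deposited matrices, and their unique molecular identifiers (UMIs) were summed within cell classes set by marker genes that include none of them. The data came from 2 single-cell libraries made in droplets from tissue dissected at the mouse Achilles tendon. The injured library came from the limb given a burn with tenotomy (a cut tendon), collected 7 days after the injury. The uninjured library came from the contralateral limb of mice given the same procedure, so it is not tissue of untreated animals. Mice of both groups carried Hoxa11 wt/CreERT2, R26 wt/LSL-rtTA and TetO-Vegfd, were 8 to 12 weeks old at the procedure, and were male and female, with 5 per group in the study. The transgene of both groups places Vegfd, a growth factor for lymphatic vessels, under rtTA in cells in which CreERT2 driven from Hoxa11 has acted. Whether a library pools animals, and how many, is not stated in the labels. With 1 library per condition there is no replicate and no test of injury. Every interval given is a 95% exact counting interval, which says nothing about variation between mice.

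Angpt1 is the activating ligand of Tek and is made mainly by mural and mesenchymal cells, while Angpt2 is made by endothelial and mural cells and can activate or oppose Tek depending on the setting. Tie1 is a related receptor that binds no angiopoietin strongly on its own and modulates Tek on the same cell. Apelin is a peptide that endothelial cells release at the front of growing vessels, Aplnr is its G protein-coupled receptor on venous and growing endothelium, and Esm1 (endocan) is a secreted proteoglycan used as a marker of sprouting tip cells.

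In the GENCODE annotation of mm10 all 7 were protein-coding genes. Angpt1 lay on chromosome 15 (42424723 to 42676977, minus strand), Angpt2 on chromosome 8 (18690263 to 18741562, minus strand) and Tek on chromosome 4 (94739289 to 94874976, plus strand). Tie1 lay on the same chromosome 4 (118471191 to 118490061, minus strand), Apln on chromosome X (48025146 to 48034853, minus strand), Aplnr on chromosome 2 (85136225 to 85139923, plus strand) and Esm1 on chromosome 13 (113209659 to 113218098, plus strand). Genes on the opposite strand overlapped 3 of them: Gm17473 overlapped Angpt1, Mcph1 overlapped Angpt2, and Gzmk overlapped Esm1. The labels do not say whether counting used strand, so for these 3 genes reads of the partner cannot be told apart. The RefSeq promoter table (GRCm38.p6, 250 bases before to 50 after the start) held 4 of the 7 genes. For that reason only their windows are shown. They are chr4:94739039-94739338 (plus strand) for Tek, chr4:118489800-118490099 (minus strand) for Tie1, chrX:48034804-48035103 (minus strand) for Apln and chr13:113209409-113209708 (plus strand) for Esm1. Capitals mark the core GGAA of the ETS family on either strand, which contains many endothelial regulators.
Tek: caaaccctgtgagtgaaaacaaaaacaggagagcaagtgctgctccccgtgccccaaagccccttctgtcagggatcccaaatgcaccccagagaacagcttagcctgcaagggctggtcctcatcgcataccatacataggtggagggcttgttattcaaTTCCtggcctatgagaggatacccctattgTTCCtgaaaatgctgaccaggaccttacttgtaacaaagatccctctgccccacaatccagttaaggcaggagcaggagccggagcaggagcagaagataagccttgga
Tie1: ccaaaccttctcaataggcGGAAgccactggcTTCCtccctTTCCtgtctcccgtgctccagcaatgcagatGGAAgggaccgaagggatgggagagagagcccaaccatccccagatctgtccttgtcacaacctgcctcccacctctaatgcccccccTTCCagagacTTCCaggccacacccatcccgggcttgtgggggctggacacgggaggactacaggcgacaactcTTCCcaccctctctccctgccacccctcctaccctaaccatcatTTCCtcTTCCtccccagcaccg
Apln: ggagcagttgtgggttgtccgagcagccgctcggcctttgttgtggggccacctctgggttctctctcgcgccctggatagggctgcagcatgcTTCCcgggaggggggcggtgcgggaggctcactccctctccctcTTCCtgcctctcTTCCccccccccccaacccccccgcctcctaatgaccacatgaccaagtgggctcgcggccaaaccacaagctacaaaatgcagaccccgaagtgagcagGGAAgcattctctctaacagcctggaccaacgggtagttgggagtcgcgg
Esm1: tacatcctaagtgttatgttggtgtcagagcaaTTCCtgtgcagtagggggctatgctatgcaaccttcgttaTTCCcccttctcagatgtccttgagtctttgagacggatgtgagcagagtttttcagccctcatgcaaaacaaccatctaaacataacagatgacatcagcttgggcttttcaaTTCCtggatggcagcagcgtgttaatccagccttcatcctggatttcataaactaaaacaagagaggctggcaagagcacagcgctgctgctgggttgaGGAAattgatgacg
Tie1 held 9 matches to GGAA, Apln and Esm1 held 4 each, and Tek held 2. The median over all 32851 promoters of the table was 3, and 95.98% held at least 1, so a match to this core is no distinction. None of the 4 windows held ACGTG, the core of the hypoxia response element, which 19.62% of all promoters held on either strand, or the forkhead motif GTAAACA, which 3.65% held. Angpt1, Angpt2 and Aplnr are named only.

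The injured library held 10691 barcodes and 253050820 UMIs, and the uninjured library 6850 barcodes and 101685524 UMIs. After filters on genes, mitochondrial UMIs and doublets, 9164 injured and 4702 uninjured cells remained. The libraries shared 19 barcodes. Vegfd, the transgene product, was at 95.05 CPM (UMIs per 1000000 of the summed total) over all injured cells and 23.5 CPM over all uninjured cells. The transgene and the gene's own transcript are not told apart by this count. Vascular endothelial cells numbered 1134 injured and 1624 uninjured, and all 9 markers of that list were found in 50% or more of the cells of both libraries. Median depth in these cells was 24506.5 UMIs injured and 14260.5 UMIs uninjured, so shares of cells are given after each cell was thinned to 5000 UMIs, which left out 74 injured and 189 uninjured shallower cells of this class. Haemoglobin transcripts differed: the erythroid list summed to 352 CPM in injured and 3272 CPM in uninjured vascular endothelial cells. Their part in the results was not tested. The labelled tissue was tendon, and cells with tenocyte markers were present (24 injured and 367 uninjured cells in the Mgp and Fmod cluster), beside skin and muscle cells. Low levels of most of these genes were seen in most classes, and free RNA in droplets gives such UMIs. Dendritic cells, which are not known as a source of them, held between 0.451 and 2.93 CPM of each gene in the injured library and up to 6.94 CPM (Tie1) in the uninjured library. At 5000 UMIs a cell no gene was found in more than 1.44% of injured (Aplnr) or 1.96% of uninjured (Apln) dendritic cells, whose median depths were 13325 UMIs injured and 20043 UMIs uninjured. Levels in these ranges are read as background below.

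Most of the genes were concentrated in 1 cell class, which was the same in both libraries. Of all Angpt1 UMIs, 87.3% injured and 74.6% uninjured lay in mesenchymal cells, and 7.87% injured and 12.9% uninjured in mural cells. Angpt2 was spread over several classes, with 45.4% injured and 44.8% uninjured in vascular endothelial, 18.4% injured and 15.1% uninjured in mural, and 12.2% injured and 8.88% uninjured in lymphatic endothelial cells. A cluster left unnamed, with both pericyte and endothelial genes, held a further 9.93% injured and 18.3% uninjured of Angpt2 UMIs. Vascular endothelial cells held most UMIs of 4 genes: 82.6% injured and 83.1% uninjured for Aplnr, 80.0% injured and 78.5% uninjured for Tie1, 79.3% injured and 81.2% uninjured for Apln, and 69.0% injured and 66.9% uninjured for Tek. Esm1 differed between the libraries in this respect: 59.2% injured and 74.6% uninjured of its UMIs lay in vascular endothelial cells, and 36.5% injured and 4.77% uninjured in mesenchymal cells. The unnamed cluster held 2.03% injured and 19.3% uninjured of Esm1 UMIs. The mesenchymal share of Apln UMIs also differed, at 12.4% injured and 2.94% uninjured. Over all cells Tek was at 52.9 CPM injured and 146 CPM uninjured, and Tie1 at 45.8 CPM injured and 110 CPM uninjured. Vascular endothelial cells were 12.4% of injured and 34.5% of uninjured cells, so at the level of a whole library fewer endothelial cells and less RNA per cell cannot be told apart.

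**Figure D1:**
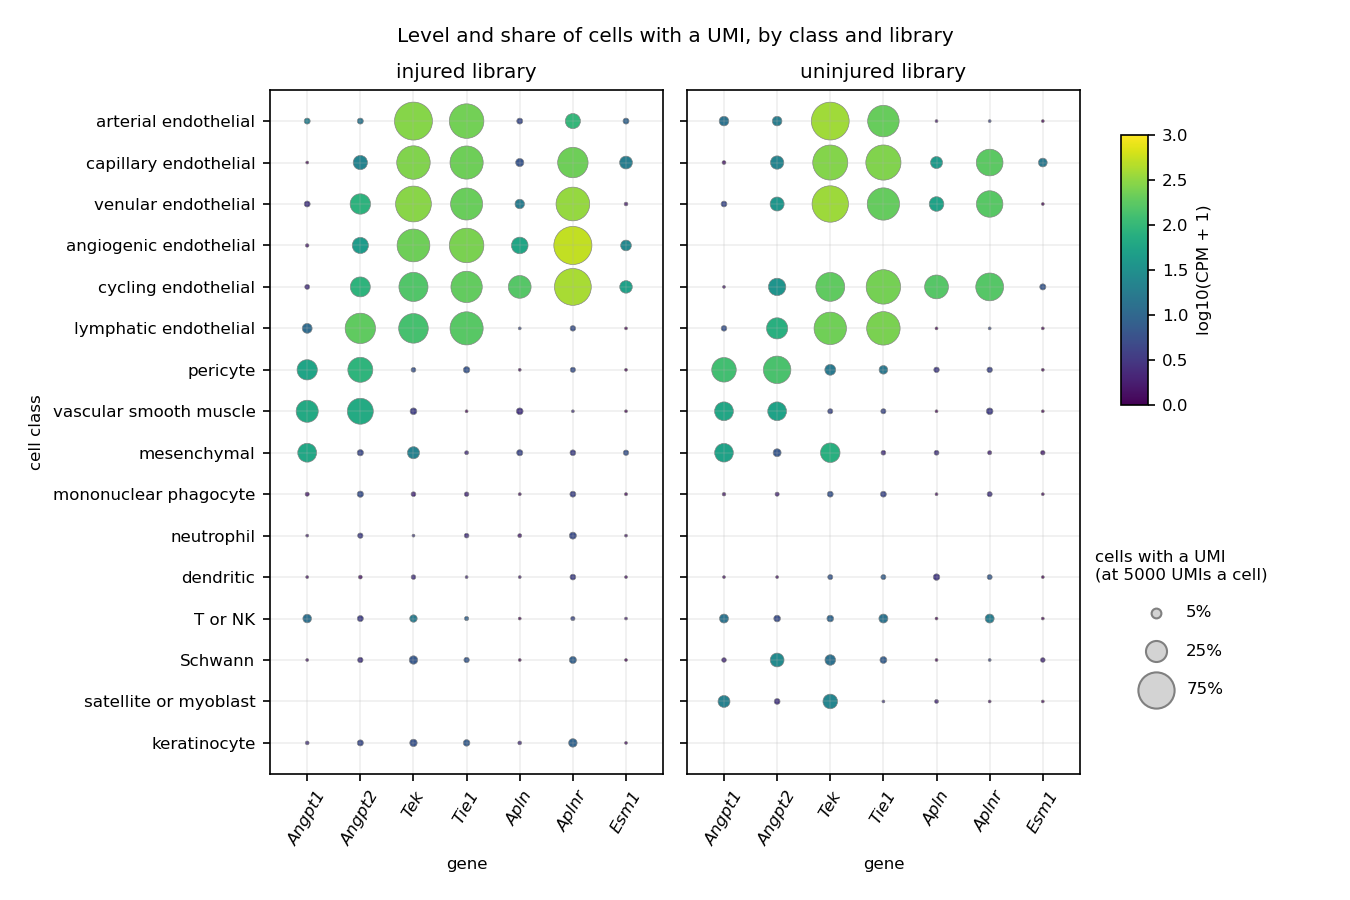
Level of each gene by cell class, injured library on the left and uninjured on the right. Colour is log10(CPM + 1) of the class and circle area follows the share of cells with a UMI at 5000 UMIs a cell. Classes with too few cells in a library are left blank, among them angiogenic endothelium in the uninjured library (7 cells). Tek and Tie1 fill all endothelial rows, Aplnr only the vascular ones other than uninjured arterial, and Angpt1 the mural and mesenchymal rows.

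In vascular endothelial cells Aplnr, Angpt2 and Esm1 were higher in the injured library by more than 2-fold, and Tek and Tie1 were somewhat lower. Thus 3 of the 7 genes were more than 2-fold higher and 0 lower, where 11.3% of the 14163 genes with 50 or more UMIs were more than 2-fold higher and 6.83% lower. The median log2 ratio was 0.45 over the 7 genes and 0.06 over all genes tested. With 7 genes that median is the ratio of a single gene, Angpt1, which was low in these cells (85 UMIs injured and 49 UMIs uninjured). Aplnr was at 428 CPM injured and 165 CPM uninjured, a ratio of 2.60 (2.52 to 2.68), with a UMI in 70.3% of injured and 38.3% of uninjured cells. Angpt2 was at 57.7 CPM injured and 25.1 CPM uninjured, a ratio of 2.30 (2.12 to 2.50), with a UMI in 17.1% of injured and 10.0% of uninjured cells. Before thinning these shares were 82.8% injured and 54.1% uninjured for Aplnr, and 43.2% injured and 22.3% uninjured for Angpt2. Esm1 was at 23.3 CPM injured and 11.3 CPM uninjured, a ratio of 2.07 (1.82 to 2.35). These are the gene for the apelin receptor, the conditional Tek ligand and a tip cell gene. The size past 2-fold (a log2 ratio of 1) was not kept by Angpt2 and Esm1 in every setting. In female cells (Xist without Y-linked UMIs) the log2 ratio was 0.62 for Angpt2 and 0.66 for Esm1, and in male cells (Y-linked UMIs without Xist) 2.03 for Angpt2 and 1.54 for Esm1. With each cell weighted equally Esm1 was at 0.64.

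The endothelial ligand Apln was nearer to parity, at 65.0 CPM injured and 50.7 CPM uninjured, a ratio of 1.28 (1.20 to 1.37). Pooled over subtypes its direction differed by sex, with a log2 ratio of -0.28 in female and 0.76 in male cells. Capillary and venular cells, taken alone, were lower in the injured library in each sex. Tek was at 225 CPM injured and 283 CPM uninjured, a ratio of 0.794 (0.770 to 0.818). Tie1 was at 226 CPM injured and 250 CPM uninjured, a ratio of 0.902 (0.874 to 0.930). Both receptors were found in most cells at equal depth, Tek in 65.0% injured and 70.6% uninjured, Tie1 in 63.5% injured and 68.3% uninjured. Before thinning the order turned, with Tek in 92.1% injured and 87.7% uninjured and Tie1 in 90.9% injured and 86.6% uninjured, beside the greater depth of the injured cells. Angpt1 was low, at 2.19 CPM injured and 1.60 CPM uninjured, with a UMI in 0.755% of injured and 0.767% of uninjured cells.

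**Figure D2:**
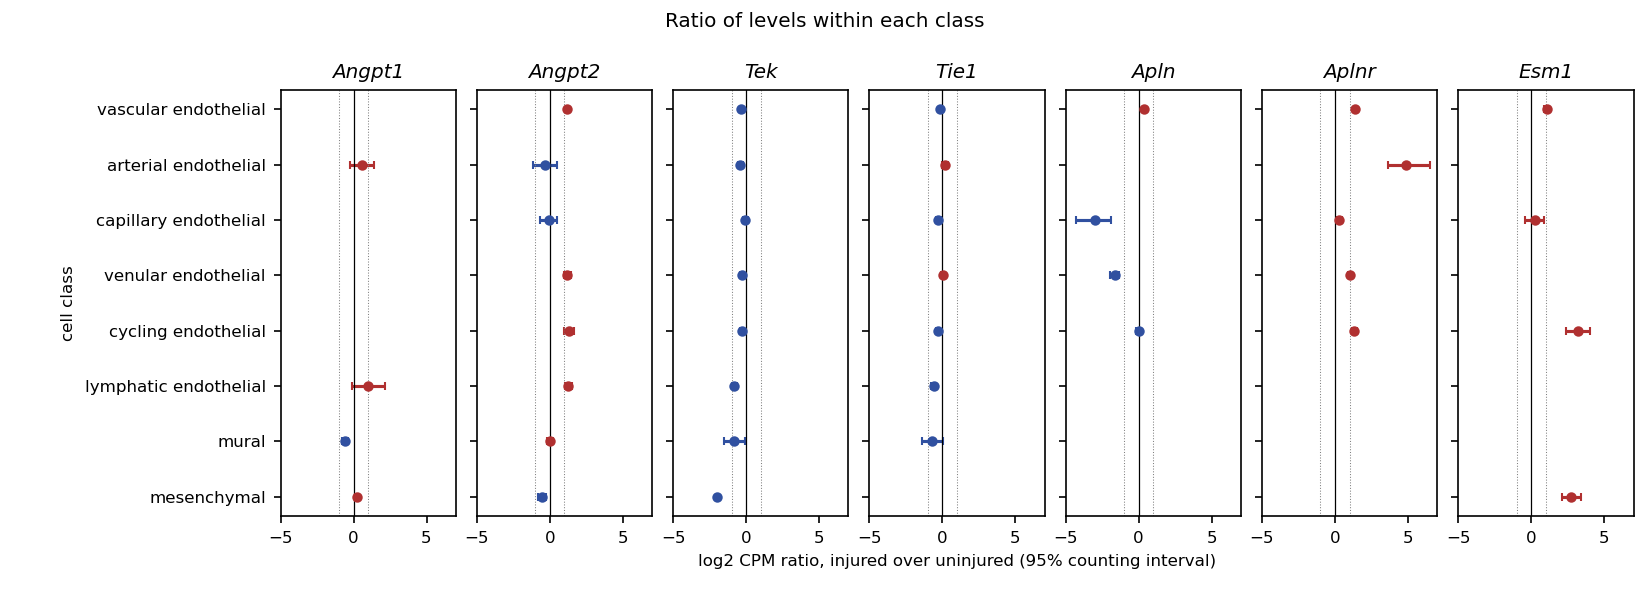
Log2 ratio of CPM, injured over uninjured, for each gene (panels) within the endothelial, mural and mesenchymal classes (rows), with 95% counting intervals; red points lie above 0 and blue points below, and dotted lines mark 2-fold. Pairs with under 20 UMIs in all, under 5 CPM in both libraries or 0 UMIs in 1 library are left out. Aplnr lies right of 0 in each of these classes that is drawn, Apln lies left of 0 in capillary and venular cells, and Tek lies left of 0 throughout, with an interval that spans 0 in capillary cells.

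Capillary cells made up most uninjured endothelium (108 injured and 1240 uninjured cells) and angiogenic cells, led by Mest, Plvap and Col18a1, were nearly all injured (504 injured and 7 uninjured), so the totals above mix different subtypes. The other subtypes were arterial (68 injured and 94 uninjured cells), venular (330 injured and 210 uninjured) and cycling (124 injured and 65 uninjured). None of the 7 genes was used in the clustering. In the injured library Aplnr was ordered angiogenic (534 CPM), cycling (403 CPM), venular (336 CPM), capillary (216 CPM) and arterial (94.8 CPM), and no neighbouring intervals overlapped. In the uninjured library the capillary (176 CPM), venular (167 CPM) and cycling (160 CPM) levels overlapped, and arterial cells were at 3.29 CPM. Within subtypes Aplnr was higher in the injured library in each that could be compared. The ratio was 2.52 (2.27 to 2.80) in cycling, 2.01 (1.85 to 2.19) in venular and 1.23 (1.09 to 1.39) in capillary cells. Cycling cells were named by cell cycle genes and differed in vessel type between the libraries. In them the capillary list summed to 8659 CPM injured and 20179 CPM uninjured, and the venular list to 1348 CPM injured and 344 CPM uninjured. The part of vessel type in the cycling ratios, here and for the genes below, was not tested. Arterial cells showed 216 Aplnr UMIs in 14 of 68 injured cells, and 5 UMIs in 3 of 94 uninjured cells, a ratio of 28.9 (12.2 to 89.8). That arterial value rests on the cells assigned: in the arterial cluster formed over all cells Aplnr was at 12.4 CPM injured and 12.7 CPM uninjured. Plvap in the same arterial subtype was at 516 CPM injured and 46.7 CPM uninjured, and its top genes included Col1a1, Col1a2 and Col3a1. Their part in the Aplnr value was not tested.

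Apln was highest in cycling endothelium of both libraries, at 159 CPM each, a ratio of 0.997 (0.891 to 1.12). In angiogenic cells of the injured library it was at 57.4 CPM. Capillary cells showed 5.30 CPM injured (7 UMIs) and 41.1 CPM uninjured (914 UMIs), a ratio of 0.129 (0.0516 to 0.266). Venular cells showed 16.9 CPM injured and 52.5 CPM uninjured, a ratio of 0.322 (0.258 to 0.400). Apln was lower in injured capillary and venular cells, whereas the total over the endothelium was higher, other than in female cells. The injured venular cells came mostly from a subcluster of 319 injured and 8 uninjured cells led by Selp, and the uninjured from one of 9 injured and 178 uninjured cells led by Tagln and Eln. The capillary list summed to 8695 CPM in injured and 16295 CPM in uninjured venular cells. Venular ratios of every gene, Aplnr and Angpt2 among them, thus set different subclusters against each other. In the venular cluster formed over all cells Apln was at 16.7 CPM injured and 9.01 CPM uninjured, the opposite direction, so the venular Apln ratio depends on where that class is drawn. Arterial cells held 9 injured Apln UMIs and 1 uninjured, too few to compare.

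Esm1 was likewise highest in injured cycling cells, at 49.9 CPM injured and 5.56 CPM uninjured, a ratio of 8.98 (5.29 to 16.6) on 403 injured and 14 uninjured UMIs. Angiogenic cells of the injured library followed at 23.9 CPM. Capillary cells did not differ beyond counting error, at 17.4 CPM injured and 14.9 CPM uninjured (ratio 1.17, 0.732 to 1.79). Venular cells held 6 injured and 0 uninjured Esm1 UMIs, where 0 UMIs allow up to 0.729 CPM, and arterial cells held 18 injured UMIs, in 3 cells, and 0 uninjured UMIs, which allow up to 1.97 CPM. Without the angiogenic and cycling cells the vascular endothelial log2 ratio of Esm1 was -1.57, against 1.05 with them, and that of Apln was -1.63, against 0.36. The corresponding value for Aplnr was 0.74, against 1.38, and for Angpt2 it was 1.43, against 1.20. Outside those 2 subtypes Aplnr and Angpt2 were thus still higher in the injured library, and Esm1 and Apln were lower. These remaining cells are mostly venular in the injured and mostly capillary in the uninjured library.

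**Figure D3:**
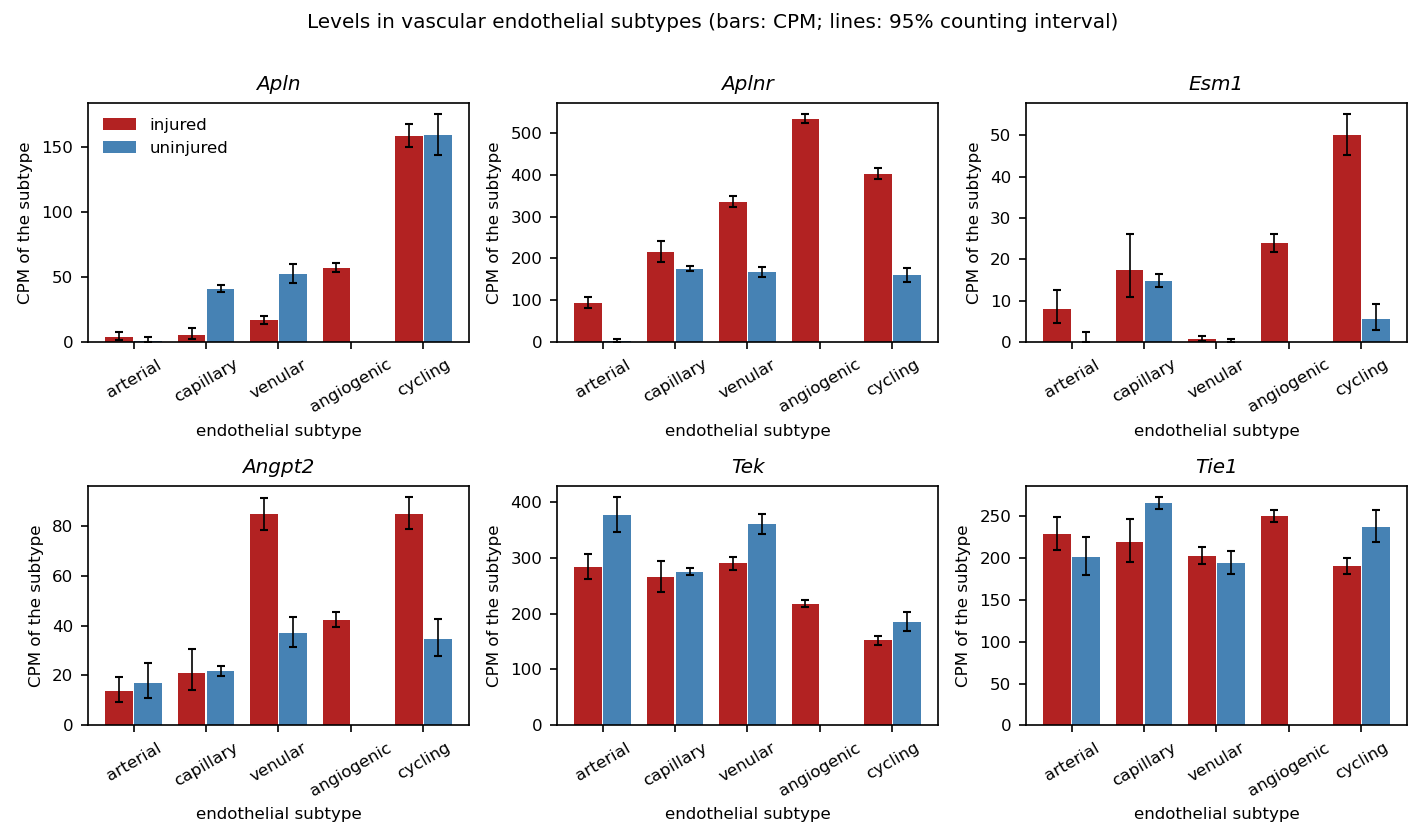
CPM of 6 genes in each vascular endothelial subtype, injured bars left of uninjured bars, with 95% counting intervals. Uninjured angiogenic cells (7) are not drawn. Cycling cells carry the highest Apln in both libraries at the same level, whereas Aplnr, Esm1 and Angpt2 of cycling cells are higher in the injured library.

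Angpt2 in venular cells was at 84.7 CPM injured and 36.9 CPM uninjured, a ratio of 2.29 (1.92 to 2.75), and in cycling cells at 84.9 CPM injured and 34.5 CPM uninjured, a ratio of 2.46 (1.96 to 3.11). As above, the venular ratio sets different subclusters against each other, and cycling cells differed in vessel type between the libraries. Capillary cells were at 21.2 CPM injured and 21.7 CPM uninjured and arterial cells at 13.6 CPM injured and 17.1 CPM uninjured, with intervals of the ratio that span 1 in both. Of the genes with 50 or more UMIs, venular cells had 2 of 5 members more than 2-fold higher (Angpt2 and Aplnr, background 6.0%) and 1 lower (Apln, background 4.21%). Capillary cells had 0 of 6 higher (background 2.37%) and 1 lower (Apln, background 3.63%), and arterial cells had 1 of 5 higher (Aplnr, background 6.54%) and 0 lower (background 4.02%).

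The receptors Tek and Tie1 were more even over subtypes. Tek was lower in injured cells of arterial, venular and cycling type, for example at 290 CPM injured and 360 CPM uninjured in venular cells (ratio 0.806, 0.755 to 0.861). In capillary cells it was at 266 CPM injured and 275 CPM uninjured, a ratio of 0.965 (0.864 to 1.07). In the injured library venular (290 CPM), arterial (284 CPM) and capillary (266 CPM) levels overlapped, with angiogenic (218 CPM) and cycling (152 CPM) cells below them. Tie1 ranged from 190 CPM in cycling to 251 CPM in angiogenic cells of the injured library, and from 195 CPM in venular to 266 CPM in capillary cells of the uninjured library. Its ratio was 1.04 (0.957 to 1.14) in venular and 1.14 (0.984 to 1.31) in arterial cells, 0.825 (0.731 to 0.929) in capillary and 0.802 (0.729 to 0.883) in cycling cells.

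Lymphatic endothelial cells (84 in each library, median 31875 UMIs injured and 17271 UMIs uninjured) held both Tie receptors and Angpt2 but hardly any of the apelin genes. Angpt2 is required for lymphatic development in mice. It was at 186 CPM injured and 77.3 CPM uninjured, a ratio of 2.41 (2.01 to 2.89), with a UMI in 52.6% of injured and 25.3% of uninjured cells at equal depth (83.3% injured and 46.4% uninjured before thinning). The injured level was the highest of any class in that library, and its interval (171 to 202 CPM) lay above that of pericytes (83.02 to 95.18 CPM). Tek was at 128 CPM injured and 222 CPM uninjured, a ratio of 0.575 (0.501 to 0.659), and Tie1 at 163 CPM injured and 247 CPM uninjured, a ratio of 0.660 (0.582 to 0.748). Only these 3 members reached 50 UMIs, with 1 more than 2-fold higher (background 13.8%) and 0 lower (background 11.7%). Aplnr was at 4.65 CPM injured (2.60 to 7.67) and 4.07 CPM uninjured (1.76 to 8.02), intervals that hold its dendritic levels of 2.93 CPM injured and 6.02 CPM uninjured. Esm1 had 0 UMIs in both, which allow up to 0.930 CPM injured and 1.53 CPM uninjured. Beside these values the fibroblast list summed to 973 CPM injured and 137 CPM uninjured and the erythroid list to 2077 CPM injured and 93.6 CPM uninjured. Angpt2 in mesenchymal cells was 3.82 CPM injured and 5.49 CPM uninjured, far below its lymphatic level. All 8 lymphatic markers were found in 50% or more of the cells of each library. Split by sex-linked transcripts, female lymphatic cells (Xist without Y-linked UMIs) held Angpt2 at 239 CPM injured (42 cells) and 75.3 CPM uninjured (20 cells). Male ones (Y-linked UMIs without Xist) held it at 107 CPM injured (23 cells) and 100.2 CPM uninjured (48 cells).

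Mural cells (448 injured and 181 uninjured) held both angiopoietins and little of the receptors, with Tek at 4.67 CPM injured and 8.23 CPM uninjured and Tie1 at 4.87 CPM injured and 7.90 CPM uninjured. Angpt1 was at 56.8 CPM injured and 83.9 CPM uninjured, a ratio of 0.676 (0.583 to 0.786), and Angpt2 at 86.6 CPM injured and 84.9 CPM uninjured, a ratio of 1.02 (0.888 to 1.18). Of the 5 members with 50 or more UMIs, 0 were more than 2-fold higher (background 12.5%) and 0 lower (background 8.35%). The class changed in make-up: pericytes numbered 401 injured and 81 uninjured, vascular smooth muscle cells 47 injured and 100 uninjured. In pericytes Angpt1 was at 56.0 CPM injured and 122.7 CPM uninjured, a ratio of 0.456 (0.379 to 0.552), and Angpt2 at 88.9 CPM injured and 135 CPM uninjured, a ratio of 0.657 (0.554 to 0.783). In vascular smooth muscle cells Angpt1 was at 63.5 CPM injured and 59.2 CPM uninjured, and Angpt2 at 66.2 CPM injured and 52.8 CPM uninjured, with ratios whose intervals span 1, on only 47 injured cells. The mural values depend on a cluster of 146 injured and 279 uninjured cells that carried pericyte genes (Rgs5, Abcc9) and endothelial genes (Fabp4, Cd36) and was left unnamed. Its median depth was 44425.5 UMIs injured and 25047 UMIs uninjured, against 20957 UMIs injured and 12677 UMIs uninjured in pericytes. It held 1121 injured and 1362 uninjured Tek UMIs. In that cluster Angpt1 was at 16.8 CPM injured and 7.88 CPM uninjured. When it was counted as mural, the log2 ratio of Angpt1 was 0.47, against -0.56 without it, and that of Angpt2 was 0.58, against 0.03. The Angpt1 value stayed below 0 in female cells (-0.73), male cells (-0.55) and with classes set cell by cell (-0.45). It also did with doublets kept (-0.40), cells weighted equally (-0.28) and median-of-ratios scaling (-0.57). It was 0.014 at a 20% mitochondrial limit and 0.96 with each library clustered alone. The direction of Angpt1 in mural cells is therefore not settled by these data.

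Mesenchymal cells, the main source of Angpt1, differed most in Tek and Esm1. Angpt1 was at 60.3 CPM injured and 52.1 CPM uninjured, a ratio of 1.16 (1.09 to 1.23), and was found in 20.04% of injured and 19.5% of uninjured cells at equal depth (59.3% injured and 36.1% uninjured before thinning). Under classes set cell by cell from Pdgfra and Dcn its log2 ratio was -0.11, against 0.21 here. Tek was at 19.4 CPM injured and 77.2 CPM uninjured, a ratio of 0.251 (0.236 to 0.266), with a UMI in 7.96% of injured and 21.5% of uninjured cells (29.5% injured and 36.3% uninjured before thinning). Dendritic cells held a Tek UMI in 0.722% of injured and 0.980% of uninjured cells at the same depth, so mesenchymal Tek was above background. Endothelial markers in mesenchymal cells summed to 180 CPM injured and 158 CPM uninjured, and Tie1 stood at 1.59 CPM injured and 1.69 CPM uninjured. Esm1 was at 5.08 CPM injured and 0.775 CPM uninjured, a ratio of 6.56 (4.29 to 10.6). Of the 7 genes, 2 were more than 2-fold higher (Esm1 and Aplnr, background 11.7%) and 1 lower (Tek, background 12.4%). The Aplnr levels, 2.86 CPM injured and 1.13 CPM uninjured, were background. Apln was at 3.61 CPM injured (3.27 to 3.99) and 1.97 CPM uninjured, beside dendritic levels of 0.902 CPM injured and 2.31 CPM uninjured.

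Most of the 6 mesenchymal clusters were largely of 1 library, so the class ratios set different clusters against each other. Tek was highest in 2 of them. In the cluster led by Gsn and Clec3b (103 injured and 885 uninjured cells) Tek was at 252 CPM injured and 118 CPM uninjured, a ratio of 2.13 (1.95 to 2.34), the opposite direction to the class as a whole. In the cluster led by Sfrp2 and Col14a1 (841 injured and 4 uninjured cells) it was at 31.0 CPM in injured cells. The cluster led by C1qtnf3 and Cthrc1 (685 injured and 8 uninjured cells) was at 7.91 CPM injured, the one led by Cxcl5 and Timp1 (617 injured and 6 uninjured cells) at 4.75 CPM injured, and the tenocyte cluster led by Mgp and Fmod at 3.45 CPM uninjured. Angpt1 was at 76.9 CPM in the Sfrp2 cluster and 77.0 CPM in the Cxcl5 cluster of the injured library, 23.1 CPM in the C1qtnf3 cluster, and 53.7 CPM injured and 72.5 CPM uninjured in the Gsn cluster. Esm1 was found mainly in the Sfrp2 cluster, at 13.8 CPM. Its 469 UMIs there lay in 3.80% of the cells before thinning, at 14.7 UMIs per cell with a UMI, and 82 UMIs were the most in any injured mesenchymal cell.

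**Figure D4:**
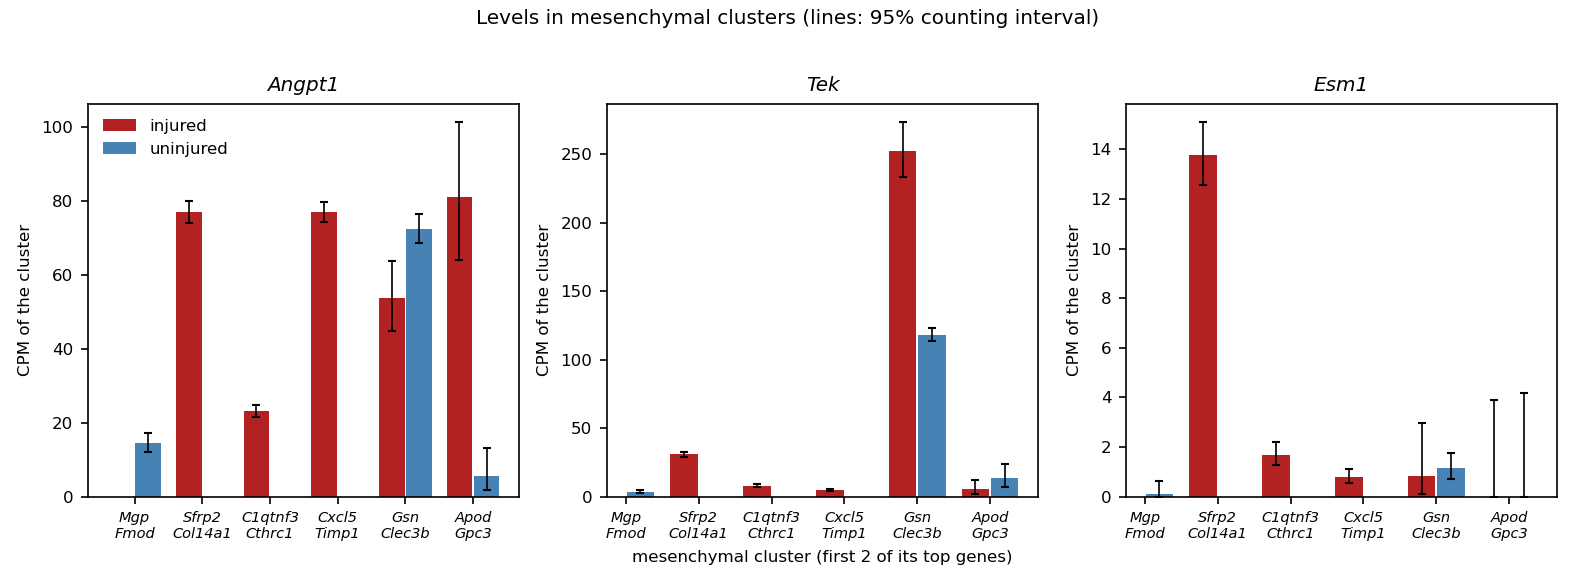
CPM of Angpt1, Tek and Esm1 in the 6 mesenchymal clusters, each named by the first 2 of its top genes, injured bars left of uninjured bars, with 95% counting intervals. Bars are drawn only where a library has enough cells in the cluster. Tek stands out in the Gsn and Clec3b cluster, at 252 CPM injured and 118 CPM uninjured, and Esm1 in the Sfrp2 and Col14a1 cluster of the injured library.

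Other classes were near background with few exceptions. In injured T or NK cells (238) Angpt1 was at 11.5 CPM on 25 UMIs and Tek at 16.2 CPM on 35 UMIs, which lay in 6 cells. Angpt1 was at 19.3 CPM in uninjured satellite cells or myoblasts (274 cells), which also held Tek at 22.5 CPM. Schwann cells held 4 injured Angpt2 UMIs (2.07 CPM, 100 cells) and 39 uninjured ones (25.7 CPM, 168 cells), a ratio of 0.0803 (0.0208 to 0.223). Mononuclear phagocytes held Angpt2 at 4.48 CPM injured and 1.20 CPM uninjured, Tek at 1.27 CPM injured and 5.25 CPM uninjured and Tie1 at 1.32 CPM injured and 3.60 CPM uninjured. A subset of monocytes is known to express Tek. In phagocytes its intervals overlapped those of its dendritic levels, 1.80 CPM injured and 5.55 CPM uninjured. Of the 4 members with 50 or more UMIs in phagocytes, 1 was more than 2-fold higher (Angpt2, background 7.18%) and 2 lower (Tek and Tie1, background 8.8%), all at these low levels. Angpt2 in injured phagocytes (3.87 to 5.17 CPM) lay above its injured dendritic level of 0.451 CPM (0.0546 to 1.63), which rests on 2 UMIs. Its interval overlapped those of injured keratinocytes (4.04 CPM, 2.97 to 5.37) and injured mesenchymal cells (3.82 CPM, 3.46 to 4.20). This low level was therefore not particular to phagocytes.

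A few cells carried most of the Esm1, Apln and Angpt2 transcripts. The cells with the most UMIs of a gene, 114 of 1134 injured and 163 of 1624 uninjured vascular endothelial cells, held 96.5% of Esm1 UMIs injured and 100% uninjured, 85.3% of Apln injured and 92.7% uninjured, and 66.0% of Angpt2 injured and 74.0% uninjured. For the receptors these shares were 41.1% injured and 56.3% uninjured for Aplnr, 33.1% injured and 34.9% uninjured for Tek, and 36.2% injured and 35.04% uninjured for Tie1. Cells were not thinned here, and a gene found in no more cells than were taken must reach 100%. The shares therefore depend on level and depth, and the receptors are at higher levels. The highest count in 1 cell was 166 UMIs injured and 102 UMIs uninjured for Apln, and 141 UMIs injured and 14 UMIs uninjured for Angpt2. Counting intervals treat UMIs as separate events, so they understate the uncertainty of ratios of genes whose UMIs lie in few cells.

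Vascular endothelial cells with an Apln UMI pooled over subtypes more often held Angpt2 and Aplnr than cells without one, in both libraries, but not in every subtype. At 5000 UMIs a cell, Aplnr was found in 78.6% of the 126 injured cells with Apln (70.4 to 85.4%) and 69.2% of the 934 without, and in 59.7% of the 129 uninjured cells with Apln and 36.1% of the 1306 without. Angpt2 was found in 27.0% of injured cells with Apln and 15.7% without, and in 18.6% of uninjured cells with Apln and 9.19% without. Esm1 was found in 13.5% of injured cells with Apln (8.06 to 20.7%) and 3.43% without (2.36 to 4.80%), but in 2.33% of uninjured cells with Apln (0.482 to 6.65%) and 3.14% without. Tek, pooled over subtypes, went the other way, with overlapping intervals. It was found in 57.1% of injured cells with Apln (48.0 to 65.9%) and 66.1% without (62.9 to 69.1%). In uninjured cells it was found in 62.0% with Apln (53.1 to 70.4%) and 71.4% without (68.9 to 73.9%). Cells share a library and a subtype, so these shares are descriptions. Among the injured angiogenic cells alone, Angpt2 was found in 27.4% with Apln and 12.2% without, and Esm1 in 13.7% with Apln and 4.75% without, whereas in injured cycling cells Aplnr was found in 64.7% with Apln and 82.9% without. In uninjured cycling cells Aplnr was likewise found in 6 of 19 cells with Apln (31.6%) and 20 of 40 without. In injured venular cells Angpt2 was found in 1 of 15 cells with Apln (6.67%, 0.169 to 31.9%) and 24.3% of the 304 without. Tek hardly differed in injured angiogenic cells (61.6% with and 61.25% without Apln) or injured venular cells (73.3% with and 73.4% without). Uninjured capillary cells held it in 67.1% with and 70.5% without Apln, uninjured venular cells in 79.2% with and 75.4% without. Cycling cells kept the pooled order for Tek, at 41.2% with and 51.2% without Apln injured. Uninjured cycling cells held Tek in 4 of 19 cells with Apln and 24 of 40 without.

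**Figure D5:**
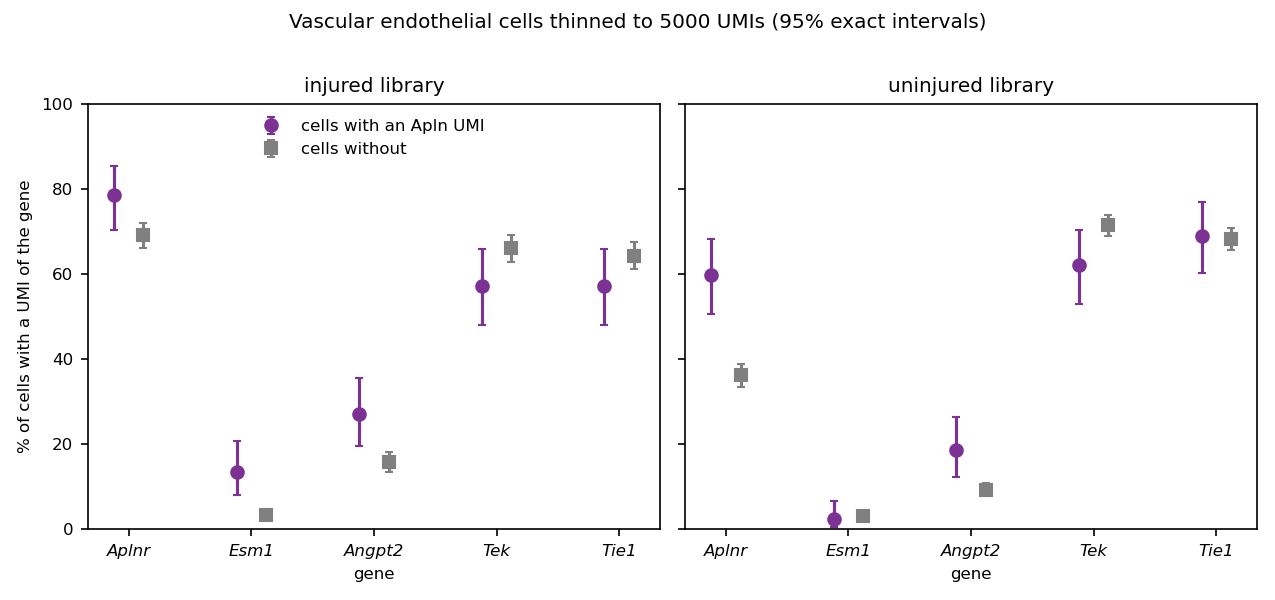
Percent of vascular endothelial cells, thinned to 5000 UMIs, with a UMI of each gene, split by whether the cell had an Apln UMI, in the injured (left) and uninjured (right) library, with 95% exact intervals. Angpt2 and Aplnr are found more often in cells with Apln in both libraries, whereas Esm1 is found in 13.5% with and 3.43% without Apln in the injured library and in 2.33% with and 3.14% without in the uninjured one.

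Of 15 other genes of the Tie and apelin pathways, 10 had 50 or more UMIs in vascular endothelial cells, with 1 more than 2-fold higher and 2 lower and a median log2 ratio of -0.10, against 0.06 for all genes. For this list and the next 3, the shares over all genes were 11.3% higher and 6.83% lower, so a count of 1 higher in any of these lists is near that share. Ptprb, the phosphatase that removes phosphate from Tek, was at 720 CPM injured and 1674 CPM uninjured (ratio 0.430, 0.424 to 0.437). It was also lower in venular cells, at 869 CPM injured and 1817 CPM uninjured, and in lymphatic cells, at 157 CPM injured and 316 CPM uninjured, but not in capillary cells, at 1651 CPM injured and 1710 CPM uninjured. Svep1 and Grb14, the other genes past 2-fold, were under 2 CPM in both libraries. Foxo1, a transcription factor that Tek signalling restrains through Akt, was at 199 CPM injured and 144 CPM uninjured, and Pik3r1, a regulatory subunit of the kinase upstream of Akt, at 136 CPM injured and 90.0 CPM uninjured. Akt1 was at 105 CPM injured and 122 CPM uninjured, and Furin, a protease that can cleave proapelin, at 68.8 CPM injured and 68.6 CPM uninjured. Angpt4, Dok2, Grb7 and Apela were among the genes too low to compare there. In mural cells Angpt4, another angiopoietin, had 8 UMIs injured (0.763 CPM) and 51 UMIs uninjured (16.8 CPM), in a class with 47 injured and 100 uninjured smooth muscle cells.

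Of 12 tip cell and sprouting genes all were tested in vascular endothelial cells, with 1 higher (Plvap, a protein of endothelial fenestrae, at 1490 CPM injured and 410 CPM uninjured) and 2 lower (Unc5b at 18.1 CPM injured and 55.8 CPM uninjured, Nrp1 at 304 CPM injured and 799 CPM uninjured). Their median log2 ratio was -0.43. Kdr, the main receptor for VEGF-A, was at 428 CPM injured and 683 CPM uninjured and Dll4, the Notch ligand of tip cells, at 62.9 CPM injured and 95.6 CPM uninjured. Kdr, Pdgfb, Cxcr4, Nid2, Trp53i11 and Plvap were also markers used to name angiogenic cells. Dll4, and Sox17 of the quiescent list below, were markers used to name arterial cells. These genes were not left out of the clustering. Their counts beside the background are therefore not independent of how the cells were grouped. The list differed by subtype. In arterial cells 5 of 11 tested were higher (Cxcr4, Nid2, Trp53i11, Plvap and Nrp2; background 6.54%) and 0 lower, with a median of 0.86. In venular cells 2 of 9 were higher, Dll4 at 25.9 CPM injured and 11.4 CPM uninjured and Nid2 at 25.7 CPM injured and 11.4 CPM uninjured (background 6.0%), 0 were lower and the median was 0.045. Plvap in venular cells was at 1460 CPM injured and 1987 CPM uninjured. In capillary cells 0 of 12 were higher and 1 lower (Nid2), with a median of -0.39. Of 10 genes of quiescent endothelium 0 were higher and 3 lower, with a median of -0.87: the flow-responsive factors Klf2 (373 CPM injured and 1227 CPM uninjured) and Klf4 (157 CPM injured and 717 CPM uninjured), and Sox17 (130 CPM injured and 310 CPM uninjured). Capillary cells alone differed less, with Klf2 at 1292 CPM injured and 1332 CPM uninjured and Sox17 at 329 CPM injured and 341 CPM uninjured. In venular cells 4 of the 10 were lower (Klf2, Klf4, Nos3 and Thbd, background 4.21%), with a median of -0.72. Klf2 and Klf4 were also more than 2-fold lower in lymphatic and mesenchymal cells. A capillary subcluster of 35 injured and 355 uninjured cells had the stress genes Egr1, Fos and Hspa1a among its top genes, beside Klf2 and Klf4. Its part in these values was not tested. Of 10 genes of mural growth and attachment 1 was higher, Tgfbr2 at 223 CPM injured and 108 CPM uninjured, and 0 lower, with a median of -0.12.

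The genes whose levels were most like each member were found over 26 points, each a class in a library with 50 or more cells, among 8283 genes, by Pearson's r of log2(CPM + 1). The points share 2 libraries and differ in depth, so r is a description. Tie1 was most like Nova2 (0.99), Egfl7 (0.99) and Myct1 (0.99), and Tek was most like Ramp2 (0.98), Enpp3 (0.98) and Npr1 (0.95). Aplnr was most like Nr5a2 (0.96), Fam167b (0.94) and Scarb1 (0.93). Apln was most like Nr5a2 (0.86), Prnd (0.85) and Lhx6 (0.83), and Esm1 was most like Prnd (0.82). Angpt1 was most like Hoxa10 (0.91) and Angpt2 was most like Arhgef7 (0.88). Among the members themselves the closest pairs were Tek with Tie1 (0.90) and Apln with Aplnr (0.85), and Angpt1 with Aplnr was the lowest (-0.43).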

How the data were processed

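Each library was a 10x 3' v2 preparation of digested soft tissue, and the deposited values are UMI counts per gene and barcode made by the authors with Cell Ranger 5.0.1 on mm10, per the submitters' processing notes. The counts are raw, and no normalization was applied before deposit as far as the values show. Cells needed 500 genes or more and no more than 10% mitochondrial UMIs, and cells with a Scrublet doublet score over 0.2 were removed (202 injured and 58 uninjured). Both libraries were clustered together with scanpy 1.11.5 (2000 variable genes, 30 principal components, 15 neighbours, Leiden resolution 0.8, seed 1, python 3.11.15), and vascular endothelial cells were clustered again. The 7 genes, their pathway genes, and genes that are ribosomal, mitochondrial, sex-linked or code for immunoglobulin or haemoglobin were left out of the variable genes. Clusters were named from 23 marker lists and endothelial subclusters from 5, none holding a member, with at least 3 markers in 10% or more of the cells. A cluster with a rival list at 0.75 or more of the best score stayed unnamed.

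UMIs were summed per class and library and given as CPM. Intervals are exact (Poisson for CPM, Clopper-Pearson for shares, conditional for ratios) at 95% and cover counting error only. A count of 0 was set at a limit of 3 counts. For shares each cell was thinned to 5000 UMIs, leaving out shallower cells. Genes with 50 or more UMIs over both libraries were counted past 2-fold. With 1 library per condition no test was made, and p-values are not given. The interval script was tested on simulated data.

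The 7 genes and all lists were chosen with earlier results of these data known. Set after the clusters were seen were the use of subtype lists as endothelial markers, the omission of haemoglobin genes from list scores, and the need for an own marker among the top 10 genes of a subtype. The genes named are the 7 in every class, genes of the fixed lists with their counts past 2-fold, and per member those of highest Pearson's r, up to 5, among genes that reached 50 CPM in any point. Genes chosen after their values were seen are Mest, Col18a1 and the other leading genes of clusters. Alternatives kept doublets, allowed 20% mitochondrial UMIs, clustered each library alone, set classes by marker gates on single cells, weighted cells equally, scaled by the median of ratios, or split cells by Xist and Y-linked UMIs; 2 were added after the data were seen. Libraries of the control genotype were not analysed here.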

Additional observations from a re-analysis of the deposited data

Results flagged for a closer look

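Angpt2 stood apart in direction between classes. Its log2 ratio, injured over uninjured, was 1.27 in lymphatic, 1.20 in venular and 1.30 in cycling endothelial cells, and -3.64 in Schwann cells, where the counts were 4 UMIs injured and 39 UMIs uninjured. The difference between these classes was not tested.

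Apln in vascular endothelial cells pooled over subtypes differed in direction between female and male cells. Female cells (Xist without Y-linked UMIs) were at 45.4 CPM injured and 55.2 CPM uninjured, a log2 ratio of -0.28, and male cells (Y-linked UMIs without Xist) at 78.0 CPM injured and 46.1 CPM uninjured, a log2 ratio of 0.76. Within capillary and within venular cells Apln was lower in the injured library in each sex. Female venular cells were at 11.7 CPM injured and 38.5 CPM uninjured, and male ones at 17.9 CPM injured and 76.2 CPM uninjured. Injured capillary cells held only 4 female and 2 male Apln UMIs. In injured angiogenic cells Apln was at 64.7 CPM in female and 37.3 CPM in male cells, the opposite order to the pooled class. The difference between the sexes was not tested, and the number of animals of each sex is not stated.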

How the results depend on the processing

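With 1 library per condition, animal, library and injury cannot be told apart. Of the alternatives to the 9 main ratios, 38 stayed within the counting interval, 41 left it, some with a change of sign, and 1 ratio past 2-fold reversed. Aplnr and Angpt2 in vascular endothelial cells were higher in the injured library in each alternative run for them. All log2 ratios here are injured over uninjured. In vascular endothelial cells Apln (0.36 as reported) was 0.22 with doublets kept, 0.26 at a 20% mitochondrial limit, -0.28 in cells with Xist, 0.76 in cells with Y-linked UMIs and -1.63 without the angiogenic and cycling cells. Under these 5 settings Aplnr (1.38) was 1.31, 1.33, 1.32, 1.45 and 0.74, and Tek (-0.33) was -0.41, -0.40, -0.24, -0.40 and -0.036. With each library clustered alone Aplnr was 1.11, Tek -0.50 and Tie1 -0.24, and with cells weighted equally Aplnr was 1.55, Tek -0.20 and Esm1 0.64. Esm1 (1.05) was 0.66 in cells with Xist, 1.54 in cells with Y-linked UMIs and reversed to -1.57 without the angiogenic and cycling cells. Angpt2 (1.20) was 0.62, 2.03 and 1.43 under those 3 settings. Tie1 (-0.15) was -0.22 with doublets kept, -0.21 at the 20% limit and -0.26 without those cells. In mural cells Angpt2 (0.03) was 0.29 at the 20% limit, 0.72 with libraries clustered alone, -0.17 with marker gates, -0.27 in cells with Xist, 0.38 in cells with Y-linked UMIs and 0.58 with the mixed cluster included. Angpt1 there (-0.56) was 0.014 at the 20% limit, 0.96 with libraries clustered alone, -0.28 with cells weighted equally and 0.47 with the mixed cluster. Mesenchymal Angpt1 (0.21) was -0.11 with marker gates and 0.34 under median-of-ratios scaling. The cause was not tested. Without thinning, Tek was found in 92.1% of injured and 87.7% of uninjured and Tie1 in 90.9% of injured and 86.6% of uninjured vascular endothelial cells, the opposite order to equal depth. Counting genes from 1 UMI, more than 2-fold lower genes made up 13.1% in vascular endothelial, 23.6% in lymphatic, 17.4% in arterial, 16.5% in venular, 27.0% in mural, 24.8% in mesenchymal and 33.1% in phagocyte cells, and higher genes 17.8% in vascular endothelial, 15.7% in arterial, 35.5% in capillary and 10.1% in venular cells. No paired analysis was possible because each condition is 1 library. Depth limits the arterial, capillary and Schwann values, where a few UMIs or cells decide.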
